A study of Mus musculus with 6 samples.

Results

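Serotonin receptor genes were examined in a comparison of mouse cortical cells that received an shRNA against Nat14 with cells that received a control shRNA. The 10 genes are Htr1a, Htr1b, Htr1d, Htr1f, Htr2a, Htr2c, Htr3a, Htr4, Htr6 and Htr7. All 10 were found by symbol among the 21937 genes of the authors' deposited table. The family was chosen by its gene symbols, with the deposited fold change and adjusted p of Htr7 in view. The values of Htr7 are therefore a description and are used as support for nothing else.

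The strain and genotype of the mice are not given in the labels. Plasmids for the non-targeting control (NTC) or for the Nat14 shRNA (shNat14) were injected into the lateral ventricle of embryos at embryonic day 14.5 and driven into neural progenitors by electric pulses. Cortex was dissected at embryonic day 18.5, 4 days later, and live cells with green fluorescence were sorted for RNA sequencing, giving 3 shNat14 and 3 NTC libraries. By this design the sorted cells were meant to be progenitors that took up the plasmid, together with their progeny. Markers of mural cells, meninges and microglia were also detected, such as Rgs5 at 40.3, Serping1 at 20.4 and P2ry12 at 9.66 CPM. The purity of the pool was not tested, and what drives the shRNA and the fluorescent protein is not stated. The labels do not tie libraries to embryos or litters, so each p-value reflects only how much the 6 libraries vary, and that variation may be technical.

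The file holds 1 line per gene, with a log2 fold change, a mean level over the libraries in log2 CPM (counts scaled to library size), a p-value and an adjusted p, and no value per library. Sample values, an SD and the depth of each library therefore cannot be shown, and whether groups overlap for a gene is unknown. Fold changes are written as shNat14 relative to NTC. That direction is read from the sign of Nat14, at -3.31 in the authors' deposited table (mean level 21.8 CPM), so Nat14 is no check of the labels. A gene is called where the authors' adjusted p was under 0.05. The lowest mean level in the authors' deposited table, 0.117 CPM (log2 CPM -3.09), is shared by 4537 genes, and the median level is 3.27 CPM. In bulk RNA from a sorted pool, fewer cells of a type and less RNA per cell cannot be told apart.

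Serotonin reaches the embryonic cortex first from outside the brain and then from axons of the raphe nuclei in the hindbrain. Its receptors are G protein-coupled, with the exception of the Htr3 genes, which encode subunits of a cation channel. Receptors of classes 1 and 5 act mainly through Gi/o proteins and lower cyclic AMP, those of class 2 act through Gq and phospholipase C, and those of classes 4, 6 and 7 act through Gs and raise cyclic AMP. In the developing cortex serotonin is known to act on the migration of interneurons and of projection neurons and on the growth of axons.

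Of the 10 receptor genes, 1 was called, Htr7, which was lower in shNat14. Across all genes 34 were called, 0.155% of the table, and 18 of the 6431 genes above the lowest and below the median level were called, 0.28%. The rule used this same contrast, so nothing is read from the share among the receptors. Adjusted p was 1 for each of the other 9 receptor genes in the authors' deposited table, and their smallest unadjusted p was 0.281, for Htr1f. Without Htr1d, which sat at the lowest level, 6 of the 10 genes had a positive and 3 a negative fold change. The median log2 fold change of these 9 was 0.38, beside 0.0033 over the 17400 genes above the lowest level.

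Levels were low throughout. Only Htr3a lay above the median level of the table, and only Htr3a and Htr2a exceeded 1 CPM. To compare genes, the lowest listed level was subtracted from each mean CPM and the rest was divided by the length of the merged exons. The order from high to low was Htr3a, Htr2a, Htr2b, Htr1a, Htr7, Htr5b, Htr2c, Htr6, Htr5a, Htr1f, Htr3b, Htr4, Htr1b and Htr1d, with Htr2b, Htr3b, Htr5a and Htr5b added from outside the 10. Htr3a reached 3.23 CPM per kb, 13.2 times the level of Htr2a at 0.246. The next genes were close together, with Htr2b at 0.212, Htr1a at 0.189 and Htr7 at 0.173 CPM per kb. From Htr2c at 0.0512 the order ran down to Htr1b at 0.00724 CPM per kb, and Htr1d had no level above the lowest. These are means over both groups. Each mean can be split by the gene's own fold change, as a plain average of equal groups, before the lowest level is subtracted. The implied NTC level was then 3.14 CPM per kb for Htr3a, 0.377 for Htr7, 0.278 for Htr2b and 0.211 for Htr2a. The same split put Htr1f at -0.0276, which no real level can be, so it is rough at these levels. For Htr7 it rests on the fold change that was in view at the choice, so its place is a description only. Without values per library, whether neighbours in this order differ was not tested.

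**Figure D1:**
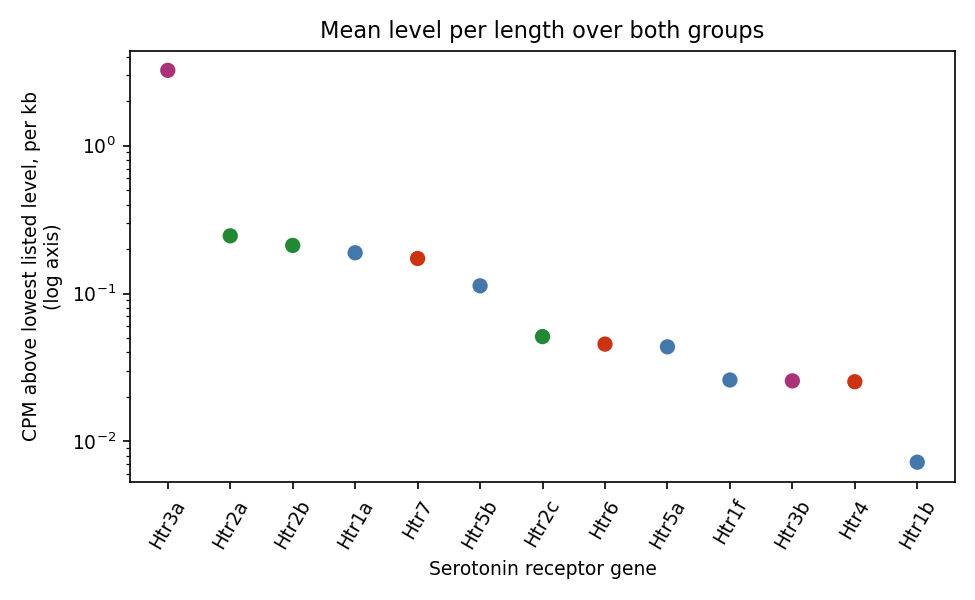
Mean level of each serotonin receptor gene over both groups, in CPM above the lowest listed level per kb of merged exon (vertical log axis). Colours mark coupling, blue for Gi/o, green for Gq, red for Gs and purple for the ion channel. Htr3a stands at 3.23 and the other 12 plotted genes lie at or below 0.246, while Htr1d is at 0 and is not drawn.

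The receptors that couple to Gs were Htr4, Htr6 and Htr7. Htr7 is known from the thalamus, hippocampus and cortex, where it raises cyclic AMP and also acts through G12 on the growth of neurites. The authors' deposited table listed Htr7 with a log2 fold change of -7.34, a mean level of 0.704 CPM and an unadjusted p of 3.17e-05 (adjusted p = 0.026). It stood at rank 26 of all genes by p and had the fourth lowest fold change among the 34 called genes. An approximate standard error, the absolute fold change divided by the normal quantile of the deposited p, was 1.77, which gives a rough 95% interval from -10.8 to -3.88.

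The size of this fall is poorly defined at such a level. A fold change of -7.34 for Htr7 is 0.615% of the control level. If the mean level is read as the plain average of both groups, it splits into 1.40 CPM in NTC and 0.00861 CPM in shNat14, the second far under the lowest level the table lists. The columns of the table are not those that DESeq, the package named in the submitters' notes, is known to write, so the test and any prior count behind the fold are unknown. At such a level a fitted fold can depend on that choice, and -7.34 is taken as no bound for Htr7. On these fitted values Htr7 was low in NTC and close to absent in shNat14, with an unknown spread over the 3 libraries of each group.

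Genes of like level show how wide fold changes scatter there. Of the other 1068 genes within 0.5 log2 units of the mean level of Htr7, the central 95% had log2 fold changes from -3.58 to 2.93, and 4 had a fold change at or below that of Htr7. Within 0.1 log2 units there were 200 genes, Htr7 included, and Htr7 had the lowest fold change and was the 1 call among them. The next lowest of these stood at -4.41. Htr7 was chosen with its fold change and adjusted p in view, so its place in either window is a description and no evidence that it stands apart. At the other end the chemokine receptor gene Ccr3, picked after its value was seen, stood at 7.76 in the authors' deposited table with a mean level of 0.667 CPM. In the authors' deposited table Ccr3 was not called (p = 0.00846, adjusted p = 0.617), so folds of like size at this level come with very different p-values. Of the 1069 genes within 0.5 log2 units, Htr7 included, 8 were called. The share called was 0.155% over all genes and 0.28% over genes above the lowest and below the median level. All 8 were lower in shNat14, as were 15 of the 18 calls below the median level. The 8 included Fibin at -8.15, Gucy2f at -4.82 and Mgam at -5.64 in the authors' deposited table, named after their values were seen.

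**Figure D2:**
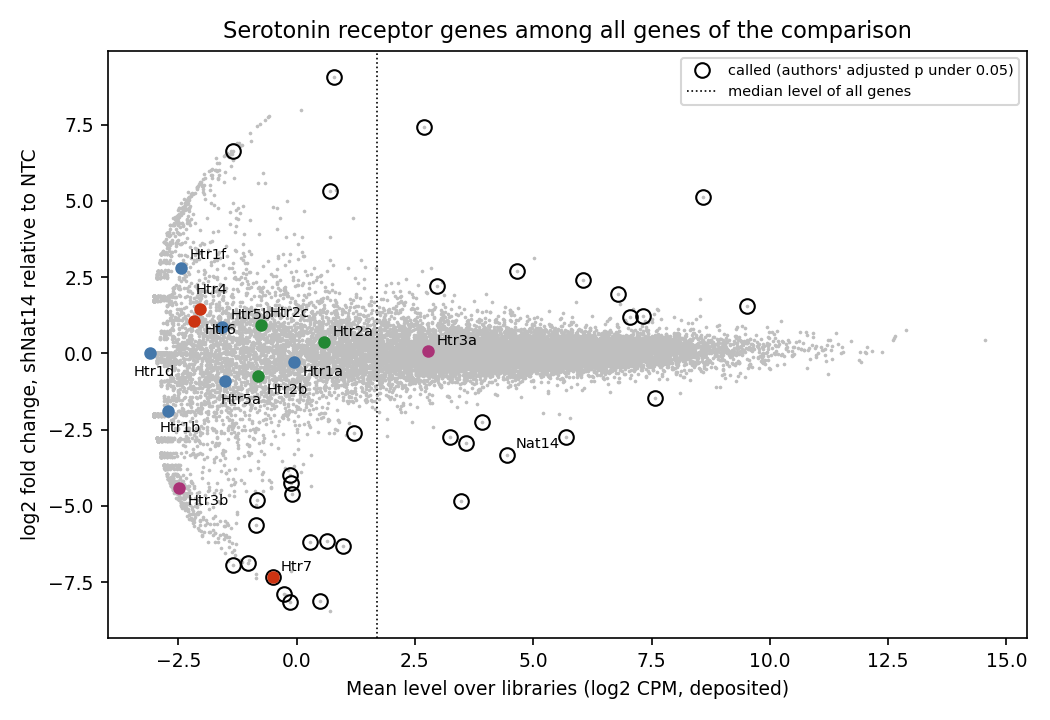
Log2 fold change of shNat14 relative to NTC (vertical axis) against mean level in log2 CPM (horizontal axis) for all 21937 genes (grey points), with the 14 serotonin receptor genes in colour and the 34 called genes ringed. Htr7 lies at -7.34 at the lower edge of the cloud, and Htr3a is the only receptor gene to the right of the dotted median level.

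Neither of the other Gs-coupled receptors was called. Htr4, which raises cyclic AMP in neurons of cortex and hippocampus, stood at 1.46 in the authors' deposited table (mean level 0.241 CPM, unadjusted p = 0.343). Its rough 95% interval ran from -1.56 to 4.49. Htr6, a receptor of primary cilia that takes part in the migration of cortical neurons, stood at 1.06 in the authors' deposited table (0.224 CPM, p = 0.639). Both lay close to the lowest level, and their missing calls do not show that they were equal between groups.

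The Gi/o-coupled members of class 1 gave no call. Htr1a, an inhibitory receptor of projection neurons and an autoreceptor of raphe neurons, stood at -0.28 in the authors' deposited table with 0.964 CPM (p = 0.801). Htr1b, a receptor of axon terminals, was listed in the authors' deposited table at -1.90 with 0.151 CPM (p = 0.517). The authors' deposited table listed Htr1f, another receptor of this class, at 2.81 with 0.184 CPM, and its rough 95% interval of -2.30 to 7.92 shows how little this level constrains the fold. Htr1d, a receptor close to Htr1b in sequence and coupling, sat at the lowest level with a fold change of 0, as did 4536 other genes.

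The Gq-coupled members were Htr2a, the target of hallucinogens in cortical pyramidal neurons, and Htr2c, which is known for its high level in the choroid plexus. Htr2a stood at 0.38 in the authors' deposited table with 1.49 CPM (p = 0.616). Htr2c was listed at 0.92 with 0.594 CPM (p = 0.539) in the authors' deposited table. Choroid plexus markers also had mostly positive fold changes, 12 of 14. Their median was 0.91, with none called and none at unadjusted p under 0.05. Of these Ttr, the carrier of thyroid hormone, stood at 1.80 in the authors' deposited table with a mean level of 366 CPM (p = 0.065). Their part in the value of Htr2c was not tested.

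Htr3a, the channel subunit that marks interneurons from the caudal ganglionic eminence, was the best measured receptor gene. It stood at 0.08 in the authors' deposited table with a mean level of 6.85 CPM (p = 0.888). For the 1477 other genes within 0.5 log2 units of its level the central 95% of fold changes ran from -1.02 to 1.30. Of 10 markers of caudal ganglionic eminence interneurons, 1 was higher and 1 lower at unadjusted p under 0.05, and none was called. Over all genes 5.04% had an unadjusted p under 0.05, 2.79% higher and 2.25% lower. The transcription factor Nr2f2 stood at 1.62 in the authors' deposited table (115 CPM, p = 0.00021, adjusted p = 0.0864), and the neuropeptide gene Cck at -1.61 (p = 0.0438). Of 11 general interneuron markers, 4 (Gad1, Dlx1, Dlx5 and Lhx6) were lower at unadjusted p under 0.05, beside 2.25% of all genes, none was called, and the median was -0.52. Htr3a thus did not show the negative fold change of the general markers, a difference that was not tested.

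**Figure D3:**
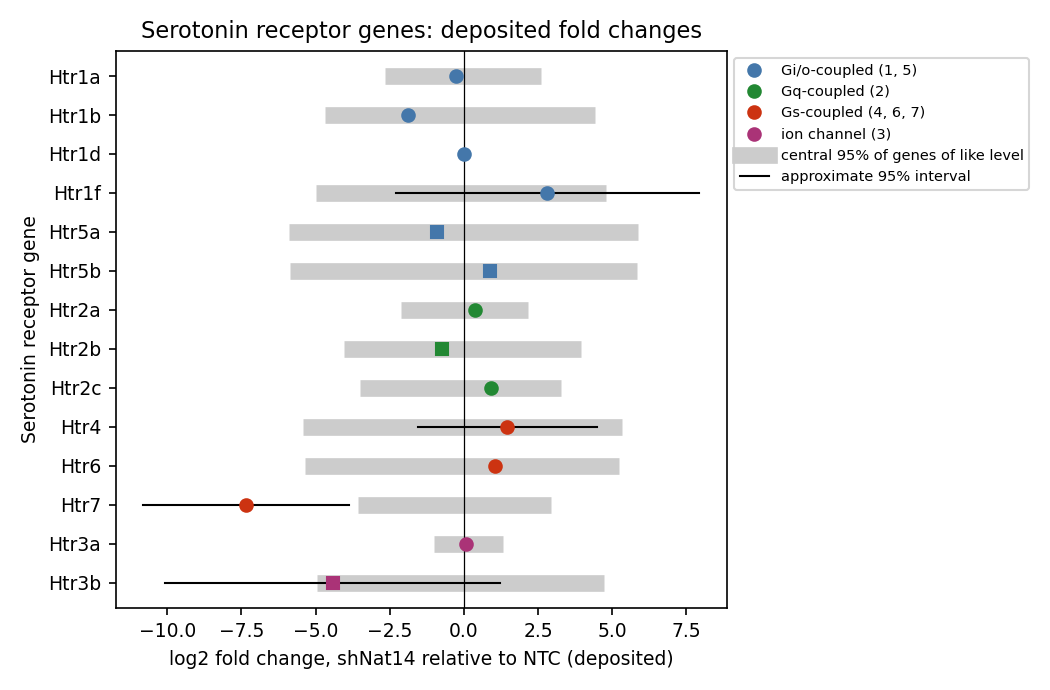
Deposited log2 fold changes of 14 serotonin receptor genes (points, circles for the 10 genes and squares for the other 4), shNat14 relative to NTC on the horizontal axis. Grey bars span the central 95% of genes within 0.5 log2 units of the same mean level, and thin lines are rough 95% intervals, drawn where the deposited p was under 0.5. Htr7 at -7.34 lies outside its grey bar and the other 12 genes above the lowest level lie inside theirs.

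The 4 serotonin receptor genes outside the 10 were not called either. Htr3b, the partner subunit of Htr3a, stood at -4.42 in the authors' deposited table with 0.179 CPM (p = 0.124), inside the central 95% of -4.96 to 4.73 for genes of like level. Htr2b, a Gq-coupled receptor known from heart and gut, was listed in the authors' deposited table at -0.73 with 0.568 CPM (p = 0.519). The authors' deposited table gave -0.90 for Htr5a and 0.87 for Htr5b, with 0.352 and 0.335 CPM. Over all 14 receptor genes, 7 had a positive and 6 a negative fold change.

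Genes that make, store, take up or break down serotonin were looked at next. Of 17 found in the table, none was called, while 2 were higher and 2 lower at unadjusted p under 0.05. These counts stand beside 2.79% higher and 2.25% lower over all genes. The median log2 fold change of the 17 was -0.03. Tph2, the rate-limiting enzyme of serotonin synthesis in neurons, had the smallest p of the list, at 2.43 in the authors' deposited table (2.67 CPM, p = 0.000277, adjusted p = 0.104). Slc18a2, the vesicular monoamine transporter, stood at 0.71 with 97.7 CPM (p = 0.028) in the authors' deposited table. Slc22a3, a low-affinity monoamine uptake carrier, was listed in the authors' deposited table at -5.60 with 0.283 CPM (p = 0.0118). Spr, an enzyme that makes the cofactor of Tph2, stood at -0.71 with 22.6 CPM (p = 0.0294) in the authors' deposited table.

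The enzyme and carrier best known for clearing serotonin were not called. Maoa, which oxidises serotonin, stood at -0.03 in the authors' deposited table with 102 CPM (p = 0.921). Slc6a4, the serotonin uptake carrier that thalamic axons also use in development, was listed in the authors' deposited table at 0.74 with 0.326 CPM (p = 0.584). Slc6a4 lay close to the lowest level, and its missing call does not show that it was equal between groups. Factors of serotonergic neurons were near the lowest level, and Fev, which defines these neurons, sat at that level itself. Of the 10 genes of that list 1 was lower at unadjusted p under 0.05, beside 2.25% of all genes. It was Gata3, at -4.46 in the authors' deposited table with 0.276 CPM (p = 0.0442).

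Genes downstream of the receptors were at higher levels, and none was called. All 19 G protein genes lay at or above the median level, and their median fold change was -0.02. Of the 19, 1 was higher at unadjusted p under 0.05, beside 2.79% of all genes. That gene was Gnai1, an inhibitory alpha subunit, at 0.70 in the authors' deposited table (71.7 CPM, p = 0.0379). Gnas, the Gs alpha subunit used by Htr7, stood at 0.22 (p = 0.596), and Gna12, its other partner, at -0.90 (7.22 CPM, p = 0.0873) in the authors' deposited table. None of 27 cyclic AMP genes reached unadjusted p under 0.05, with a median of 0.04. The smallest p there was that of Adcy8, a calcium-stimulated adenylyl cyclase, at -2.66 in the authors' deposited table (0.825 CPM, p = 0.0523).

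The phospholipase C and calcium list, which serves Htr2a and Htr2c, had 1 of 18 genes higher and 1 lower at unadjusted p under 0.05. Over all genes 2.79% were higher and 2.25% lower at that threshold. The list's median fold change was -0.11. Camk2b, a calcium-dependent kinase of synapses, stood at 0.99 (p = 0.0403) and Itpr3, a calcium release channel, at -4.13 (0.394 CPM, p = 0.00929) in the authors' deposited table. Of 18 genes for desensitisation and binding partners of the receptors, 1 was lower at unadjusted p under 0.05, beside 2.25% of all genes. It was Rgs19, a brake on Gi signalling, at -0.70 in the authors' deposited table (p = 0.0285). The median of these 18 genes was -0.15. Cops5, a partner of Htr6, stood at 0.01 and S100a10, a partner of Htr1b, at -0.40 in the authors' deposited table. None of 8 regulators of Htr1a transcription and editing enzymes of Htr2c reached unadjusted p under 0.05, and the smallest p was that of Hes5, a repressor induced by Notch, which the authors' deposited table listed at -0.39 (p = 0.319).

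**Figure D4:**
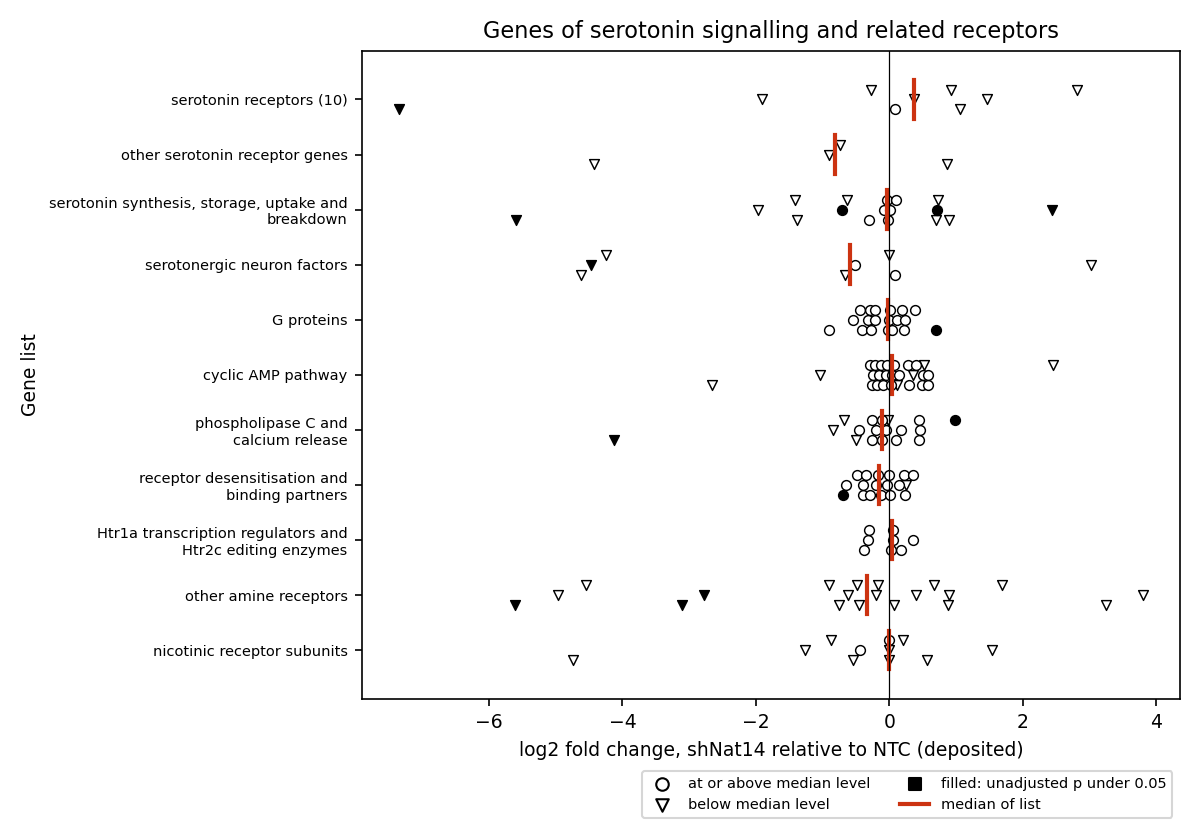
Deposited log2 fold changes (horizontal axis, shNat14 relative to NTC) of the genes of 11 lists, 1 row per list, without genes at the lowest level. Circles lie at or above and triangles below the median level of the table, filled symbols have an unadjusted p under 0.05, and red bars are list medians. G protein genes lie between -0.90 and 0.70, while cyclic AMP genes have a median near 0 but run from -2.66 to 2.45. Receptor genes, nearly all of them triangles, scatter widely.

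Receptors for other amines shared the low level of the serotonin receptors. None of 23 genes for adrenergic, dopamine, histamine and muscarinic receptors lay at or above the median level and none was called. Unadjusted p was under 0.05 for 3 of the 23, all lower, beside 2.25% lower over all genes. The median over the 20 above the lowest level was -0.33. Hrh1, a histamine receptor, stood at -5.60 (0.311 CPM, p = 0.00594) and Adra2b, an adrenergic receptor, at -2.78 (0.622 CPM, p = 0.00426) in the authors' deposited table. Of 13 nicotinic receptor subunits, relatives of Htr3a, none reached unadjusted p under 0.05, and Chrna6 had the smallest p, at -4.75 with 0.177 CPM (p = 0.0755) in the authors' deposited table. Not all of these subunits were low, since 2 of the 13 lay at or above the median level. Chrnb2, the most abundant, stood at -0.44 with 55.3 CPM (p = 0.298) in the authors' deposited table. Whether the amine receptors differ from the serotonin receptors was not tested.

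The genes next to Htr7 on chromosome 19 were not called. By RefSeq gene order on assembly GRCm38.p6, Kif20b and Rpp30 are its nearest protein-coding neighbours in the table. Kif20b, a mitotic kinesin, stood at 0.70 in the authors' deposited table (42.2 CPM, p = 0.0205, adjusted p = 0.823). Rpp30, a subunit of ribonuclease P, was listed at 0.18 with 105 CPM (p = 0.51) in the authors' deposited table.

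Markers were used to check the labelled tissue. Cortical and neuronal markers were high, with Neurod6 at 2527 and Tubb3 at 913 CPM, and none of 14 excitatory neuron, 8 pan-neuronal or 10 progenitor markers reached unadjusted p under 0.05. Fabp7, a radial glia gene, had a mean level of 2012 CPM. Unadjusted p was under 0.05 for 5 of 10 astrocyte markers (Gfap, Aldh1l1, Aldoc, Apoe and the called Agt) and for 5 of 10 microglia markers (C1qa, C1qb, Csf1r, Aif1 and Tmem119), all lower, with list medians of -0.89 and -1.44. The share over all genes was 5.04%, made up of 2.79% higher and 2.25% lower. It was under 0.05 for 3 of 10 endothelial and mural markers (Emcn, Rgs5 and Acta2), all higher, with a list median of 1.19. It was also under 0.05 for Cnp, 1 of 8 oligodendrocyte lineage markers (median -0.39), and for Col1a2 and Serping1, 2 of 6 meningeal markers (median -0.80), all lower, and for 0 of 7 Cajal-Retzius markers (median 0.35). The most abundant genes of the glial, vascular and meningeal lists were Aldoc at 521, Olig1 at 72.6, Rgs5 at 40.3, Serping1 at 20.4 and P2ry12 at 9.66 CPM. Calb2 led the Cajal-Retzius list at 45.1 CPM, but Calb2 and Reln are also on the caudal ganglionic eminence list. The other Cajal-Retzius markers were Nhlh2 at 9.76, Trp73 at 1.40, Lhx5 at 0.384, Ebf2 at 0.320 and Lhx1 at 0.158 CPM. The part of glial, vascular, meningeal or Cajal-Retzius cells in the value of Htr7 was not tested.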

How the data were processed

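The authors deposited 1 table of their own comparison. Its columns are, per the file headers, the log2 fold change, the log2 CPM averaged over libraries, the p-value and the false discovery rate of each gene, all used as deposited. Per the submitters' processing notes, DESeq, HTSeq 0.5.4p1, SAMtools 0.1.19 and TopHat2 2.0.8 were used, with roles not stated, and the build was hg19, a human one, while the symbols are those of mouse, so no coordinates are given. The sources used here state neither normalization nor filters nor prior count.

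Members and gene lists were chosen with earlier results of these data known. Of 286 list entries in 23 lists, 283 were found by their symbol. Another 2 were found under older symbols, and 1, Asmt, was not found. Some list genes are counted but not reported by name here. Merged exon lengths came from GENCODE M21. The rule for named genes took all serotonin receptor genes, Nat14, the neighbours of Htr7, up to 2 genes per direction at unadjusted p under 0.05 in each pathway list (or the gene with the smallest p), and from each marker list the 2 most abundant genes and the one with the smallest p, of which the text prints those that bear on the receptors. Maoa, Slc6a4, Fev, Gnas, Gna12, Cops5, S100a10, Cck, other markers at unadjusted p under 0.05, Ccr3, Fibin, Gucy2f and Mgam were named in addition, after their values were seen. Chrnb2, Reln, Trp73, Lhx1, Lhx5 and Ebf2 were likewise named after their values were seen. No gene with a similar pattern could be ranked from a single contrast. Approximate errors assume a normal test statistic. Adjusting the deposited p-values by Benjamini-Hochberg gave the authors' 34 calls. Python 3.11.15, pandas 2.3.3 and scipy 1.17.1 were used.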

Additional observations from a re-analysis of the deposited data

How the results depend on the processing

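Some settings could not drop Htr7, whose adjusted p of 0.026 was in view at the choice. These were the looser cut-offs, 0.1 after adjustment or 0.05 before it, and an adjustment without the genes at the lowest level. The smallest unadjusted p of the other 9 receptor genes was 0.281. Under each of these settings the count of called receptor genes among the 10 was 1, Htr7, and nothing is read from this. With Bonferroni correction over all genes the count was 0 (p of Htr7 times the number of genes was 0.695), and it was 0 when the adjustment covered genes no lower than the median level, which leaves Htr7 out by construction. The calls over all genes were 34, and became 55 at adjusted p under 0.1, 1105 at unadjusted p under 0.05, 16 over genes no lower than the median level and 17 with Bonferroni correction. Re-centring moved Htr7 to between -7.38 and -7.35. The median of all 10 receptor genes, 0.23 with Htr1d at 0, lay between 0.08 and 0.38 under the alternatives, of which the one without Htr7 was chosen after seeing the data. No paired analysis was possible because only the authors' comparison could be used, which has no library values, and fits that leave out each replicate were not run for the same reason. A single contrast without library values leaves fold changes under 1 CPM, as for 12 of 14 serotonin receptor genes, with little precision.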
